A study of Mus musculus with 8 samples.

Results

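The arrays carried 55681 non-control probes, and 1559 of these were made against annotated noncoding RNAs, that is, against transcripts with a RefSeq accession of the NR type and no lincRNA entry in the array description. They represented 1394 genes and 1414 accessions. By symbol and description, 730 probes lay in RIKEN clones, 279 in predicted genes, 256 in pseudogenes, 99 in antisense RNAs, 27 in noncoding variants of coding genes, 16 in host genes of small nucleolar RNAs (snoRNAs), 14 in small structured RNAs, 7 in microRNA host genes and 131 in other named RNAs. Of the 1559 probes, 513 were well above background on all 8 arrays, 268 on some arrays and 778 on none. The test took in probes that every array of 1 or more groups showed well above background, here 619 probes of 544 genes.

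Noncoding RNA genes of this kind are transcribed mostly by RNA polymerase II and spliced and polyadenylated like mRNAs, but their product is not a protein. SnoRNA host genes carry guide RNAs for the modification of ribosomal RNA in their introns and microRNA hosts carry hairpins that Drosha cuts out, while Malat1 and Neat1 stay in the nucleus, at nuclear speckles and paraspeckles. Many noncoding transcripts are short-lived, so that their level follows transcription, processing and decay closely.

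The RNA came from NIH3T3, a mouse fibroblast line that divides without limit. All cells had been kept in 0.5% newborn bovine serum for 24 h. In 3 arrays the cells were given 20 µM cordycepin for 90 min with serum for the last 30 min, in 3 arrays they were given 0.1% DMSO in place of cordycepin and the same serum, and in 2 arrays they were labelled as controls without serum (called starved here). Cordycepin is 3′-deoxyadenosine, an adenosine analogue that ends an RNA chain where it is built in. No array held cells with cordycepin and no serum, so that cordycepin could be compared with its vehicle under serum alone. The treated groups are described as independent triplicates, while for the starved pair nothing says that separate cultures were used, so that p-values may rest in part on technical spread.

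The probes of the transcripts on which the results turn are printed first, since several genes gave different results with different probes. Each is 60 bases long and is written 5′ to 3′ in the sense of the RNA, with AATAAA or ATTAAA, the usual polyadenylation signals, in capitals where the probe holds one. The positions are those in the files, on mouse build mm9. Malat1 was probed at chr19:5795713-5795772 on the minus strand, Mir17hg at chr14:115445828-115445887 on the plus strand, and Dancr at chr5:74490275-74490334 on the plus strand. The Gas5 probes lay on the plus strand at chr1:162966369-162966428, chr1:162967350-162967409 and chr1:162968608-162968667, and the Dnm3os probes on the plus strand at chr1:164148400-164148459, chr1:164150517-164150576 and chr1:164155595-164155654. The AI854703 probes lay on the plus strand at chr6:48578508-48578567 and chr6:48583630-48583687, the Gm4532 probes on the minus strand at chr7:134376338-134376397 and chr7:134375969-134376028, and the 4930426L09Rik probe on the plus strand at chr2:18921348-18921407.
Malat1: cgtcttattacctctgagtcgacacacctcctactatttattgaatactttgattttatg
Mir17hg: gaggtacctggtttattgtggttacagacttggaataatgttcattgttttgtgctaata
Dancr: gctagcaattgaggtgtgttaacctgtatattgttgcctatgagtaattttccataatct
Gas5, first probe from 5′: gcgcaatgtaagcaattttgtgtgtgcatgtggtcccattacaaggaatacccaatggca
Gas5, second probe from 5′: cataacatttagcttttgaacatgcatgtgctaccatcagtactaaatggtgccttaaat
Gas5, last probe from 5′: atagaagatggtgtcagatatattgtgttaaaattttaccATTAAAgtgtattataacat
Dnm3os, first probe from 5′: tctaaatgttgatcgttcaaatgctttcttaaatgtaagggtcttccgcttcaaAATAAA
Dnm3os, second probe from 5′: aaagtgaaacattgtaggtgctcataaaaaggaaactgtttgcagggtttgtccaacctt
Dnm3os, last probe from 5′: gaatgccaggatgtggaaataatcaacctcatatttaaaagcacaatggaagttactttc
AI854703, first probe from 5′: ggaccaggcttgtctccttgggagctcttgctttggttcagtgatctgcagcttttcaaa
AI854703, second probe from 5′: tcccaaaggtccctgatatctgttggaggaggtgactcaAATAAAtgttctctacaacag
Gm4532, first probe from 5′: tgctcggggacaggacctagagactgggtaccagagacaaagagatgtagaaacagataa
Gm4532, second probe from 5′: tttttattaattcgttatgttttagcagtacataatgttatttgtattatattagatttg
4930426L09Rik: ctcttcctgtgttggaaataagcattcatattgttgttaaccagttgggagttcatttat

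The microRNAs in or near 3 of the host genes are shown, with the seed (bases 2 to 8) in capitals. The sequences are those of RefSeq on GRCm38.p6. The arrays measured the host transcripts and not the mature microRNAs. Mir17hg is the precursor of a polycistronic cluster that is known for promoting proliferation. RefSeq places only miR-92a wholly inside its model of Mir17hg, and the other microRNAs of the cluster printed here in part inside it or beside it. In this cluster miR-17 and miR-20a share the seed AAAGUGC and miR-19a and miR-19b share GUGCAAA. Mir100hg holds the hairpins of miR-100, let-7a-2 and miR-125b-1, and Dnm3os those of miR-199a-2 and miR-214.
miR-17-5p: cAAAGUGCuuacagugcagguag
miR-20a-5p: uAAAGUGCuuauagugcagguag
miR-18a-5p: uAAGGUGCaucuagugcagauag
miR-19a-3p: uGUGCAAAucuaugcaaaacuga
miR-19b-3p: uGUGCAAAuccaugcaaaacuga
miR-92a-3p: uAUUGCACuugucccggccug
miR-100-5p: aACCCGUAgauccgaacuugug
miR-125b-5p: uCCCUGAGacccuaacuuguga
miR-199a-3p: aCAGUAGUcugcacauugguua
miR-214-3p: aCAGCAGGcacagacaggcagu

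The 75th percentile of the processed signal, to which every level below is relative, lay between 350 and 802 units on the 8 arrays, and no spot was saturated. All levels are given as log2 of the signal over that percentile, differences are differences of these log2 values with their standard error, and p-values are limma's, adjusted over all 30859 probes tested. To be called, a probe needed an adjusted p below 0.05 together with a log2 difference of 1 or more in either direction. Of the fibroblast markers, 8 of 8 (among them Col1a1, Col3a1 and Vim) were well above background on all 8 arrays and 0 of 8 were called with cordycepin. Of 5 markers of other cell types, Krt8 was above background on no array, Epcam on 1 and Ptprc on 3, while Pecam1 and Cd68 were above background on all 8. Cd68, a lysosomal protein of macrophages, was 3.04 ± 0.21 higher with cordycepin (SE, adjusted p = 5.17e-05), and whether this bears on the noncoding RNAs was not tested.

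What cordycepin changes in serum-treated cells was addressed by comparing the cordycepin arrays with the serum arrays. Malat1, the microRNA hosts Mir17hg and Mir100hg and the snoRNA host Snhg17 fell, as did Snhg16 at its dimmer probe only, and the snoRNA hosts Dancr and Snhg3 rose together with a series of little-described RIKEN and predicted transcripts such as Gm4532. In all, 69 of 619 tested member probes (11.1%) were called higher, against a background of 7.63% of all probes tested, and 20 (3.23%) were called lower, against a background of 2.87%. The share called lower was thus near the background. Among probes of RefSeq mRNAs, 3.54% were called higher and 2.45% lower. The median log2 difference was 0.18 over the tested members and 0.10 over all probes. Quantile normalisation moved the median of all probes to -0.0049 and that of the members to 0.03. Of the 69 probes called higher, 37 were above background on every array of both groups, 15 on some of the serum arrays and 17 on none of them. Neither these 17 nor the 15 would have passed the filter on the serum arrays, so that the filter bears on their direction and the count of 69 is no measure of how often members rose. Among the 513 members above background on all 8 arrays, 37 (7.21%) were called higher, against 4.15% of all such probes. Of the 89 called probes 77.5% had risen, a share that was 66.3% after quantile normalisation and 90% of 40 called probes when arrays were centred on the spike-in probes.

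By class, the RIKEN clones held 30 of the probes called higher and 8 of those called lower, out of 237 tested. Predicted genes held 13 and 1 of 87, and pseudogenes 15 and 3 of 133. Antisense RNAs had 4 called higher and 0 lower of 42. The microRNA hosts had 0 called higher and 2 called lower of 4, the snoRNA hosts 2 and 3 of 16, the noncoding variants 1 and 1 of 22, and the other named RNAs 4 and 2 of 64. None of the 14 small structured RNA probes was called (0 of 14, with 4 at an unadjusted p under 0.05). Pseudogene probes can also bind the transcript of the parent gene, and 17 of the 1559 probes share their sequence with another probe, so such values are uncertain.

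**Figure D1:**
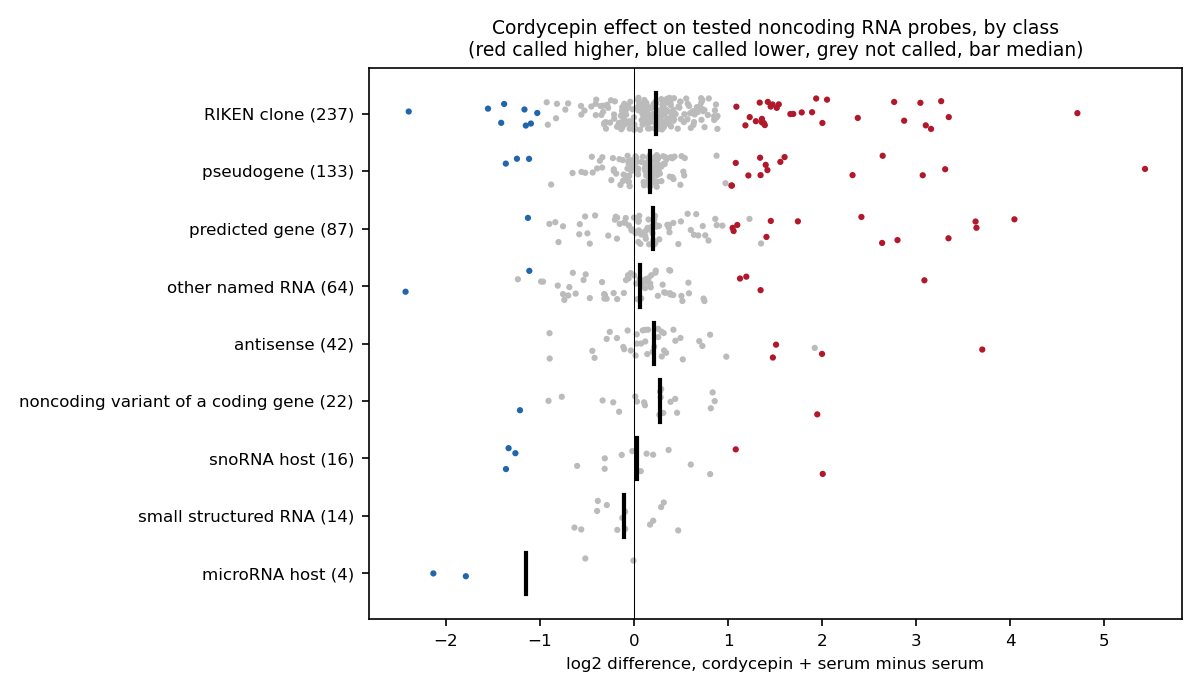
Log2 difference between cordycepin with serum and serum alone (x axis) for each of the 619 tested noncoding RNA probes (points), by class (rows, number tested in brackets), with called probes in colour and the class median as a bar. The class medians lie near 0 except for the 4 microRNA hosts, whose median is -1.15, and the points beyond 3 are RIKEN clones, predicted genes, pseudogenes, an antisense RNA (Dnm3os) and another named RNA (Rbakdn).

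Among the nuclear long noncoding RNAs, Malat1 fell at its only probe and the other RNAs of the list did not pass the threshold. With 1 probe, it could not be told whether other parts of Malat1 moved alike, and in Gas5, Meg3 and Snhg16 they did not. Malat1, which lies at nuclear speckles next to spliced transcripts, stood at 1.86 and 1.22 on the starved arrays, at 1.90, 1.67 and 2.53 on the serum arrays, and at -0.58, -0.69 and 0.07 on the cordycepin arrays. All 3 cordycepin arrays lay below all 5 other arrays. The difference from serum was -2.43 ± 0.29 (SE, 3 against 3 arrays, adjusted p = 0.000691), a 5.39-fold drop. Serum itself left Malat1 at 0.49 ± 0.33 above the starved level (adjusted p = 0.847).

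Neat1, the neighbour of Malat1 on chromosome 19 and the scaffold of paraspeckles, stood at 5.44 and 5.10 in starved cells, at 4.78, 4.84 and 5.42 with serum, and at 5.21, 4.96 and 5.55 with cordycepin. The groups overlapped, and the difference was 0.23 ± 0.22 (adjusted p = 0.518). Tug1, an RNA with a role in retinal development and in chromatin repression, had 3 probes with values of 0.16, 0.07 and -0.81, and the last of these had an adjusted p of 0.00694 but missed the fold. Firre, which organises chromatin contacts from the X chromosome, was at -0.06 ± 0.21. Of the 13 probes of this list, 10 were tested, 0 were called higher and 1 lower, with a median of -0.16. The 2 Xist probes were well above background on no array and were not tested.

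Of the microRNA hosts, Mir17hg and Mir100hg fell. Mir17hg stood at 0.24 and -0.19 on the starved arrays, at -0.0010, 0.19 and 0.53 on the serum arrays and at -2.01, -2.24 and -1.43 on the cordycepin arrays. It was 2.13 lower on the log2 scale with cordycepin (-2.13 ± 0.24, adjusted p = 0.000452) and differed from the starved arrays by -1.92 ± 0.27 (adjusted p = 0.00205). Mir100hg, listed on the array as 2610203C20Rik, stood at -0.64 and -1.01, then at -0.90, -0.81 and -0.70, and with cordycepin at -2.66, -2.79 and -2.33. Its difference was -1.79 ± 0.16 (adjusted p = 0.000136). For both RNAs the starved and serum arrays overlapped and the cordycepin arrays lay below them. Mir22hg was at -0.52 ± 0.16 (adjusted p = 0.0612) and Mir99ahg at -0.01 ± 0.15. Of 7 probes of such hosts or precursors, 4 were tested.

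The snoRNA host genes moved both ways. Dancr, also known as Snhg13, an RNA that keeps progenitor cells undifferentiated, was the member of this list that rose most. It stood at 2.25 and 2.33 in starved cells, at 2.10, 2.07 and 2.16 with serum, and at 3.99, 4.24 and 4.12 with cordycepin. The 3 groups were tight and the cordycepin arrays lay apart, with a difference of 2.01 ± 0.11 (adjusted p = 1.7e-05), a 4.02-fold rise. Snhg3, the host of Snora73a and Snora73b, stood at 0.29 and 0.97, at 0.70, 0.20 and 0.18, and at 1.23, 1.63 and 1.46, and rose by 1.08 ± 0.22 (adjusted p = 0.0102). Without cordycepin replicate 2 or without serum replicate 3 its difference was 0.99, just short of the fold required.

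Snhg17 fell. It stood at 0.37 and 0.21 in starved cells, at 0.59, 0.53 and 0.72 with serum, and at -0.72, -0.76 and -0.46 with cordycepin, a difference of -1.26 ± 0.12 (adjusted p = 0.000229). Snhg16, the host of Snord1a to Snord1c, gave -1.33 ± 0.10 (adjusted p = 7.73e-05) with its dimmer probe and -0.31 ± 0.10 (adjusted p = 0.0756) with its brighter probe 310 bases further 3′. Gas5, a growth arrest RNA whose introns hold a row of box C/D snoRNAs, also depended on the probe, as described below. The difference was smaller than the fold required for Snhg10 (0.81 ± 0.10, adjusted p = 0.000844) and Snhg18 (0.60 ± 0.10, adjusted p = 0.00434), although their cordycepin arrays lay above all other arrays.

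The other hosts did not pass the test. Snhg1 was at -0.02 ± 0.14, Snhg5 at 0.13 ± 0.23, Snhg6 at 0.20 ± 0.11, Snhg7 at 0.37 ± 0.14, Snhg12 at -0.13 ± 0.15 and Snhg15 at -0.31 ± 0.10. In total, 13 of the 21 genes on the list were probed, all 16 of their probes were above background on all 8 arrays, and 2 were called higher and 3 lower, with a median of 0.03. For the proteins of the snoRNA particles (Fbl, Nop56, Nop58, Snu13, Dkc1, Nhp2, Nop10 and Gar1), 0 of 8 mRNAs were called and the median was 0.01. Of all mRNA probes tested, 3.54% were called higher and 2.45% lower. With serum alone, 0 of the 16 host probes were called in either direction.

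**Figure D2:**
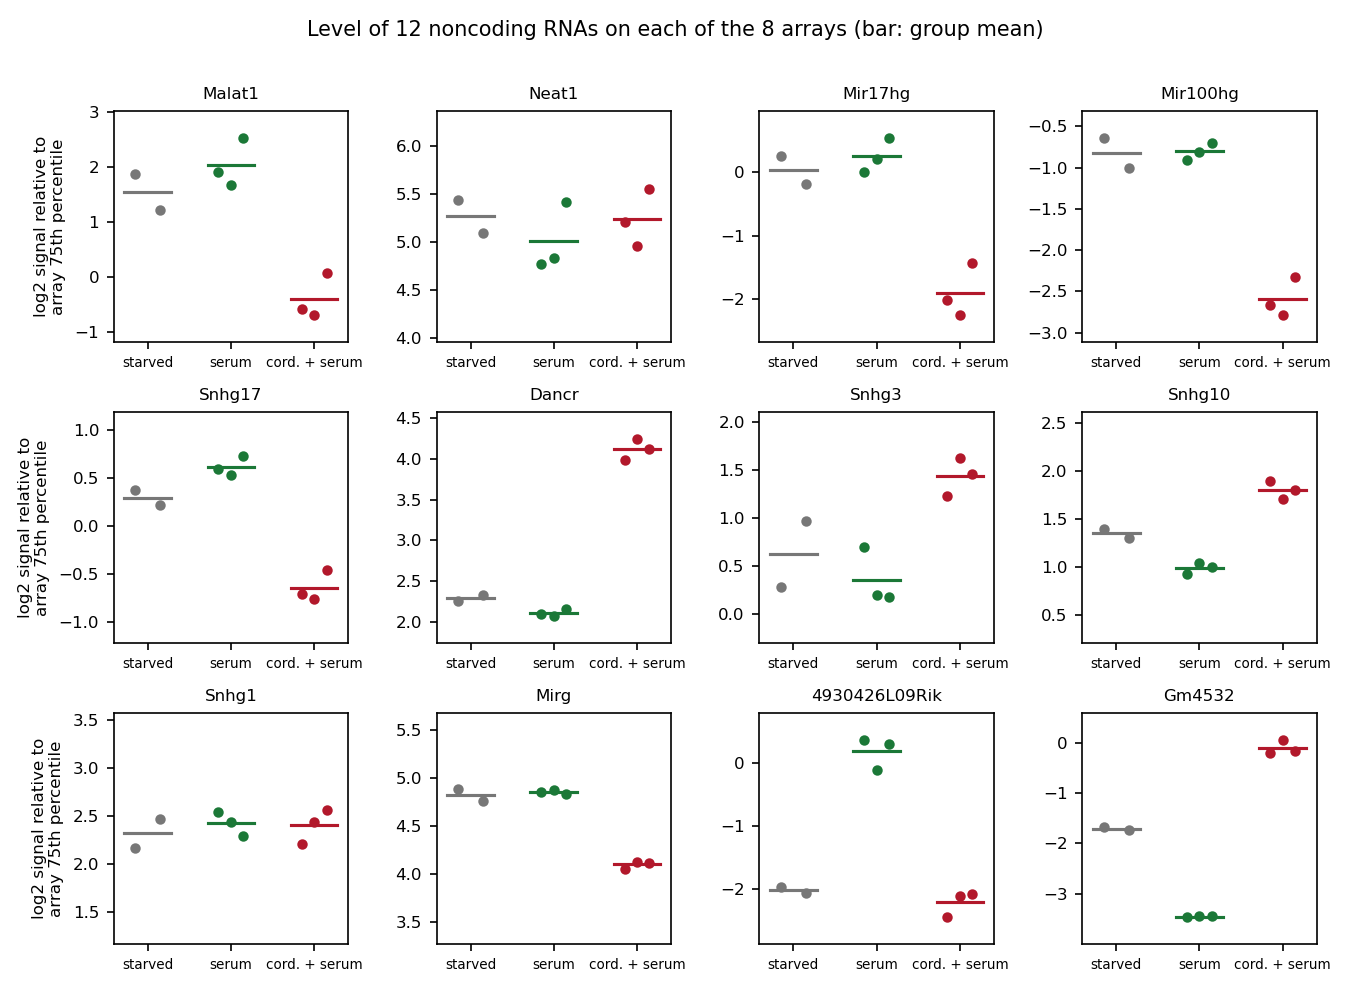
Level of 12 noncoding RNAs (log2 signal relative to the array's 75th percentile, y axis, with a different range in each panel) on each array (points) in starved, serum and cordycepin with serum cells, with the group mean as a bar. Malat1, Mir17hg, Mir100hg, Snhg17 and Mirg are lowest with cordycepin, Dancr, Snhg3 and Snhg10 highest, Neat1 and Snhg1 overlap between groups, and 4930426L09Rik and Gm4532 move in opposite directions with serum.

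Imprinted RNAs gave small changes. Mirg, the microRNA-containing 3′ end of the Dlk1-Meg3 locus, was at 4.89 and 4.76, at 4.86, 4.88 and 4.84, and with cordycepin at 4.06, 4.13 and 4.12, a difference of -0.76 ± 0.10 (adjusted p = 0.000854) that was below the fold required. Meg3, its neighbour, gave 0.02 ± 0.15 with its brightest probe and 0.00 ± 0.16 with another, but -1.11 ± 0.16 (adjusted p = 0.00196) with the probe that lies between them on the genome. Kcnq1ot1, the antisense silencer of the Kcnq1 domain, was at -0.47 ± 0.15 (adjusted p = 0.0705) and at -0.74 ± 0.14 (adjusted p = 0.00589) with its 2 probes. H19 (0.12 ± 0.30), Peg13 (-0.32 ± 0.17) and Airn (-0.26 ± 0.17 and 0.02 ± 0.19) did not pass the test. Of 10 tested probes of this list 1 was called, with a median of -0.29. Ftx, an activator of Xist, had 2 probes at -0.54 ± 0.24 and -0.69 ± 0.20, and neither was called against serum, while the second was lower than in starved cells (-1.09 ± 0.23, adjusted p = 0.0144).

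Of the growth and p53 linked RNAs, 15 of 16 probes were tested, and 1 was called higher and 1 lower. Norad, an abundant RNA that binds Pumilio proteins, was between -0.35 and 0.15 with its 4 probes. Pvt1, the neighbour of Myc, was at -0.65 ± 0.13 (adjusted p = 0.00746) with its brighter probe and at 0.11 ± 0.17 with the other. Lncpint, a p53 target, was at -0.70 ± 0.17 (adjusted p = 0.0234) and -0.51 ± 0.16, and Dleu2, the host of Mir15a and Mir16-1, at -0.31 ± 0.11. The called probes of this list were 1 each of Gas5 and Dnm3os. On the separate list of small structured RNAs, 0 of 8 probes were called, with 2 at an unadjusted p under 0.05. Rmrp, the RNA of a nuclease that processes ribosomal RNA, was at -0.39 ± 0.28, the telomerase RNA Terc at -0.18 ± 0.33, the minor spliceosome RNA Rnu12 at 0.32 ± 0.13 and Snora47 at -0.63 ± 0.18 (adjusted p = 0.0384).

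The largest rise among members above background in all groups was that of Gm4532, a predicted gene that overlaps Septin1 and Zfp553 in RefSeq. Its brighter probe stood at -1.68 and -1.73 in starved cells, at -3.47, -3.44 and -3.44 with serum, and at -0.20, 0.05 and -0.17 with cordycepin. Serum lowered it and cordycepin brought it above the starved level, without overlap between any of the groups. The difference between cordycepin and serum was 3.35 ± 0.11 (adjusted p = 6.23e-06), a 10.2-fold rise. Its other probe, above background on 1 of the 3 serum arrays, was also called higher, and no size is given for it. A830082N09Rik, beside Rwdd1, behaved in the same order, at -3.25 and -2.95, then -4.20, -4.28 and -4.05, then -1.64, -1.91 and -1.82, with a rise of 2.38 ± 0.13 (adjusted p = 1.99e-05).

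Dancr, described above, came next by size, and was followed by Phtf1os (2.00 ± 0.18), Zfp207 as a noncoding variant (1.95 ± 0.12), 1600010M07Rik (1.89 ± 0.15), 1700102H20Rik beside Tfb1m (1.78 ± 0.15), 5430431A17Rik (1.69 ± 0.18), 1810019D21Rik, which overlaps Esrp2 (1.66 ± 0.16), and Gm11517, a pseudogene that overlaps Cbx1 (1.60 ± 0.17). The adjusted p of these 7 after Dancr lay between 2.54e-05 and 0.000359. None of them was called with serum, where Phtf1os was at -0.97 ± 0.20 (adjusted p = 0.0572) and the other 6 lay between -0.69 and 0.12.

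Several members were well above background on the cordycepin arrays and on no serum array, so that only a lower bound of the rise can be given. For it, each serum array was given the lowest signal it showed for any probe well above background, or the measured value where that was larger, and the mean of these was taken from the cordycepin mean. AI854703, a pseudogene, stood at -1.10, -1.11 and -1.78 with cordycepin, at least 17.0-fold above the serum arrays (adjusted p = 4.48e-05). 2610507I01Rik, beside Mrpl55, stood at -1.94, -1.95 and -2.37, at least 10.1-fold higher (adjusted p = 5.75e-05). The corresponding bounds were at least 4.18-fold for Rbakdn (adjusted p = 0.00116), at least 3.86-fold for 4933407L21Rik (adjusted p = 0.0153) and at least 3.84-fold for Mospd4 (adjusted p = 0.000267). Gm16287 was above background on 2 of the serum arrays and stood at -4.63, -5.25 and -5.02 there, against -0.53, -1.02 and -1.21 with cordycepin, and was called higher (adjusted p = 2.21e-05). No size is given for it, since the serum level was measured in part only. All probes of this paragraph passed the filter through groups in which they were high, and their p-values rest on signals below background on the serum side.

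Position was compared without a test. The array placed 7 of 603 tested members on another chromosome than the RefSeq gene of that name, and 0 of these 7 had an upstream mRNA probe or belonged to a gene with some probes called. A tested mRNA probe of another gene lay on the same strand within 10000 bases upstream of 12 of the 69 probes called higher (17.4%), of 1 of the 20 called lower (5%) and of 26 of the 530 not called (4.91%). The share over all tested probes was not computed. Among the 12 were Rbakdn downstream of Rbak, Gm8884 downstream of Snu13, 5830454E08Rik downstream of Rpl14, 1810019D21Rik downstream of Nfatc3, Snhg3 downstream of Phactr4 and Zfp389 downstream of Zkscan8. Of the 12 upstream mRNAs, 0 were called, with a median difference of -0.05 and a range from -0.58 for Lime1 to 0.93 for Tmem223, which had an adjusted p of 0.00382 and missed the fold. The mRNA differences themselves were -0.11 ± 0.15 for Rbak, 0.09 ± 0.13 for Snu13 and 0.22 ± 0.12 for Rpl14. A polyadenylation signal (AATAAA or ATTAAA in the sense of the RNA) was held by 22 of the 69 probes called higher (31.9%) and by 1 of the 20 called lower (5%). It was held by 20.9% of those not called and by 15.5% of all tested probes. Some of the 69, among them Rbakdn, Gm14424, Gm2518 and Gm8884 of the 12, passed the filter through the cordycepin arrays alone. The shares for the probes called higher thus depend on the filter and do not stand for members in general.

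Among the drops, 4930426L09Rik was next to Malat1 in size. It lies beside Pip4k2a and stood at -1.98 and -2.07 in starved cells, at 0.36, -0.11 and 0.29 with serum, and at -2.45, -2.11 and -2.09 with cordycepin. Serum raised it, and the cordycepin arrays lay just below the starved arrays (-0.20 ± 0.18, adjusted p = 0.527). The cordycepin difference was -2.40 ± 0.16 (adjusted p = 4.52e-05). D230030E09Rik (-1.41 ± 0.27, adjusted p = 0.0079), Gm3002, a pseudogene (-1.25 ± 0.22, adjusted p = 0.00517), and 4933400A11Rik, a pseudogene that overlaps Mid1 (-1.36 ± 0.34, adjusted p = 0.0259), fell as well. The other Gm3002 probe gave -1.12 ± 0.30 (adjusted p = 0.0334). The call of 4933400A11Rik was lost without cordycepin replicate 1 or 2 or serum replicate 2 or 3 (differences of -1.29, -1.24, -1.44 and -1.17).

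What 30 min of serum changes was addressed by comparing the serum arrays with the starved arrays. No DMSO is named for the starved cells, so that serum and the vehicle cannot be told apart in this comparison. Of 619 members 8 were called higher, against a background of 0.849% of all probes, and 10 lower, against a background of 0.878%. Centred on the spike-in probes, which moved the median of all probes in this comparison from -0.02 to -0.36, 0 were called higher and 3 lower. With normexp background correction, 3 of 5 called probes (60%) were higher, against 44.4% here. 4930426L09Rik rose most, by 2.20 ± 0.18 (adjusted p = 0.00103), followed by 1700110I01Rik (1.64 ± 0.27, adjusted p = 0.0216), D230030E09Rik (1.52 ± 0.31, adjusted p = 0.0498), Gm3002 (1.51 ± 0.25, adjusted p = 0.0216) and Gm12298 (1.27 ± 0.12, adjusted p = 0.00198). The called probe of 1700110I01Rik stood at -4.08 and -4.84 in starved cells, at -2.96, -2.51 and -2.99 with serum, and at -3.46, -3.97 and -3.51 with cordycepin. Its brighter probe was at 0.09 ± 0.23 with serum. Gm12298 stood at -1.88 and -2.06, at -0.63, -0.83 and -0.65, and at -1.54, -1.60 and -1.48. In both RNAs the cordycepin arrays lay between the starved and the serum arrays, with cordycepin differences of -0.83 ± 0.24 (adjusted p = 0.0462) and -0.84 ± 0.11 (adjusted p = 0.00105) that were below the fold required.

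Gm4532 fell most with serum among members above background in both groups (-1.74 ± 0.12, adjusted p = 0.000415). A Dnm3os probe (-1.34 ± 0.25, adjusted p = 0.0368), A830082N09Rik (-1.08 ± 0.15, adjusted p = 0.0102) and Man2c1os (-1.06 ± 0.11, adjusted p = 0.00331) followed. 2610507I01Rik was above background in both starved arrays (-4.17 and -4.04) and on no serum array, at least 2.49-fold lower with serum (adjusted p = 0.0121), and Atad3aos was at least 1.05-fold lower (adjusted p = 0.0407). Of the 10 probes called lower, 4 were above background on every array of both groups, and for the others the filter bears on the direction. Of 42 antisense probes tested 5, of 4 genes, were called lower, against 0.878% of all probes. Of the 31 above background on all 8 arrays 2 were called lower, a Dnm3os probe and Man2c1os, against 0.462% of all such probes. No test of the class was made. The cordycepin and the serum comparison share the 3 serum arrays, so that a chance deviation of those arrays enters the 2 differences with opposite signs. For this reason the starved arrays are given beside them. Gm4532, A830082N09Rik and 2610507I01Rik lay above the starved level with cordycepin, by 1.60 ± 0.12, 1.30 ± 0.15 and 2.02 ± 0.38, and Man2c1os at -0.25 ± 0.11.

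**Figure D3:**
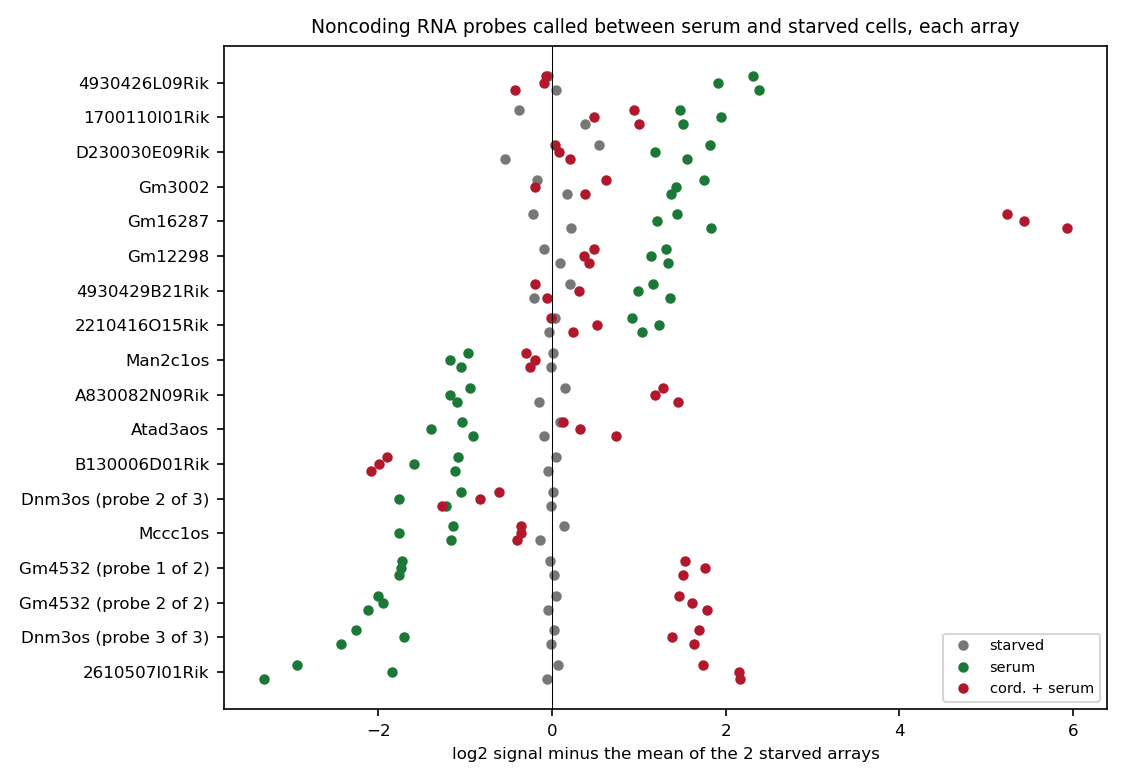
Log2 signal of each array minus the mean of the 2 starved arrays (x axis) for the 18 noncoding RNA probes called between serum and starved cells (rows), with starved arrays in grey, serum arrays in green and cordycepin with serum arrays in red. For 4930426L09Rik and 4930429B21Rik the red points lie near 0, for both Gm4532 probes, 2610507I01Rik and A830082N09Rik they lie right of 0 while the green points lie left of it, and for Gm16287, which was above background on no starved array, their distance from 0 is no measured change.

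Cordycepin with serum was also compared with starved cells, which differ by both agents and may differ by the vehicle. Of 619 members 51 were called higher, against a background of 6.48%, and 14 lower, against a background of 2.99%. Of the 51, 15 were above background on no starved array and 4 on some, so that the filter bears on their direction. Among members above background on all 8 arrays, 25 (4.87%) were called higher, against 3.78% of all such probes. The largest rises among members above background in both groups were 4931408D14Rik (2.95 ± 0.16, adjusted p = 3.54e-05), Zfp389 (2.92 ± 0.25), G630025P09Rik, which overlaps Tmem102 (2.24 ± 0.26), 2610507I01Rik (2.02 ± 0.38, adjusted p = 0.009) and Dancr (1.82 ± 0.12, adjusted p = 6.96e-05). Gm16287 was at least 26.3-fold, AI854703 at least 19.8-fold, Rbakdn at least 4.86-fold, 4933407L21Rik at least 4.49-fold and Gm14424 at least 3.50-fold above the starved arrays. Their adjusted p lay between 2.47e-05 and 0.0237, computed from starved signals below background for probes that passed the filter through the groups in which they were high. The largest drops were the middle Gas5 probe (-2.19 ± 0.21, adjusted p = 0.000313), Malat1 (-1.94 ± 0.33), Mir17hg (-1.92 ± 0.27), Mir100hg (-1.77 ± 0.18) and B130024G19Rik, which overlaps Nr2f2 (-1.67 ± 0.24, adjusted p = 0.00222). On the lists of named RNAs, 1 snoRNA host probe (Dancr) and 1 growth list probe (Dnm3os) were called higher. The share that rose was 78.5% of 65 called probes, against 67.7% after quantile normalisation and 71.4% of 21 with spike-in centring.

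The probes of 1 gene did not always move together. Of 58 genes with at least 2 tested member probes, 43 had no probe called with cordycepin, 3 had every probe called and 12 had some called and others not. The median range within a gene was 0.23, and in 9 genes the probes differed by at least 1. No gene had calls in both directions (0 of 58).

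Gas5 showed this most clearly among the snoRNA hosts. The first probe from the 5′ side stood at 1.63 and 1.91 in starved cells, at 2.26, 1.58 and 1.77 with serum and at 0.94, 1.54 and 1.33 with cordycepin (-0.60 ± 0.22, adjusted p = 0.0969). The second, 981 bases downstream on the genome, stood at 1.68 and 1.90, at 1.17, 0.66 and 1.05, and at -0.69, -0.37 and -0.15 (-1.36 ± 0.19, adjusted p = 0.00131). The third, 2239 bases downstream of the first and holding ATTAAA, stood at 5.32 and 5.75, at 5.52, 5.57 and 5.41, and at 5.63, 5.51 and 5.58 (0.07 ± 0.13, adjusted p = 0.749). At the first and the second probe the 3 cordycepin arrays lay below all others, and at the last probe the groups overlapped. Only the second probe was called.

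Dnm3os, the antisense RNA within Dnm3, gave the opposite picture. Its first probe was at 0.08 ± 0.29 and its second, 2117 bases on, at 0.44 ± 0.22. The third probe, 7195 bases from the first, stood at -5.53 and -5.49 in starved cells, where not every array was well above background. With cordycepin it stood at -3.87, -4.13 and -3.81. The third probe was on no serum array well above background, and was at least 2.79-fold higher with cordycepin than with serum (adjusted p = 1.6e-05). In AI854703 the 5′ probe was 0.41 ± 0.10 higher (adjusted p = 0.0245) and the probe 5122 bases further 3′ is the one with the bound of 17.0-fold. Gm10731 (0.20 ± 0.10, then at least 1.42-fold higher at 1129 bases, adjusted p = 7.73e-05), Smarca5-ps (0.04 ± 0.14 and -0.01 ± 0.12, then 1.35 ± 0.10 at 2521 bases) and 2810410L24Rik (0.32 ± 0.15, then 1.36 ± 0.14 at 1085 bases) also had the larger value at the most 3′ probe. These genes were picked after their values were seen. Of the 12 genes with some probes called, 6 had a call at the last probe and not at the first. Another 3 (Snhg16, Gm5523 and Gm10845) had a call at the first and not at the last. Gas5 and Meg3 had it at the middle probe only, and in Gm6981 the probes did not lie on 1 strand of 1 chromosome. The called probes of AI854703, Gm10731 and Dnm3os passed the filter through the cordycepin arrays alone, so that the filter bears on their direction.

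**Figure D4:**
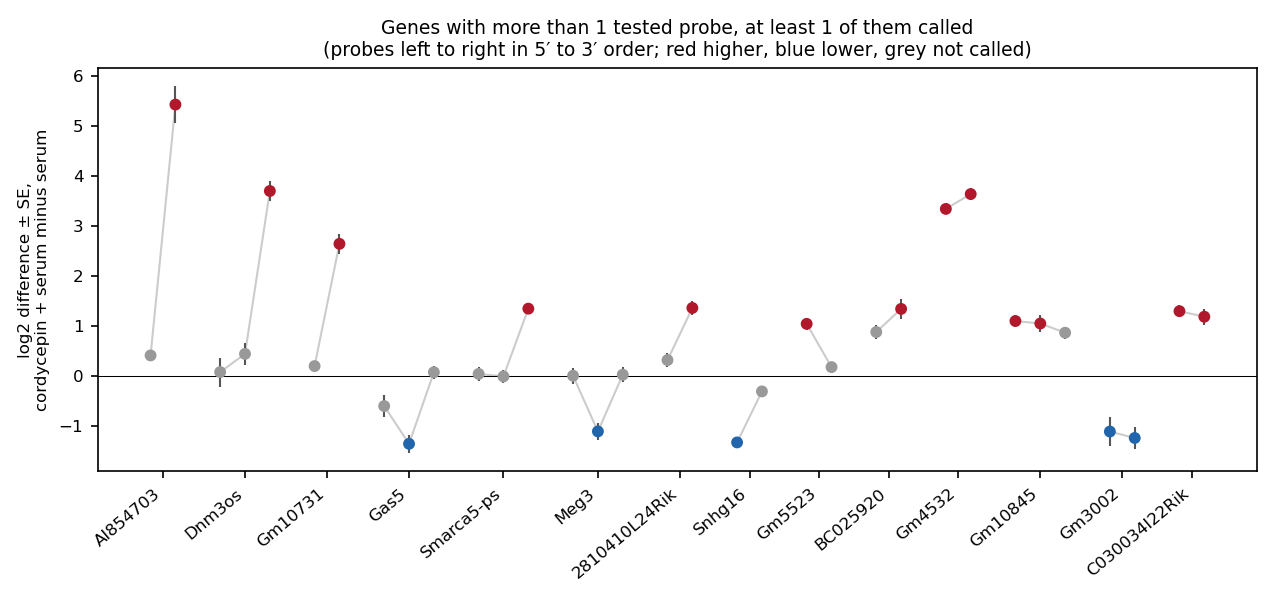
Log2 difference between cordycepin with serum and serum alone, with its standard error (y axis), for the probes of genes with more than 1 tested probe of which at least 1 was called. Probes of a gene are joined and run from 5′ to 3′ from left to right, called probes are in colour, and a value is only a bound where the text says so. The 3′ probe is the highest in AI854703, Dnm3os, Gm10731, Smarca5-ps and 2810410L24Rik, and the middle probe the lowest in Gas5 and Meg3.

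Antisense RNAs were set beside the mRNA of the gene that their name on the array refers to, and such a partner was tested for 31 of 42 antisense probes. For the 4 called higher, of which the third Dnm3os probe is described above, the partner mRNA was called in 0 of 4, with differences between -0.33 and 0.09. Phtf1os stood at -2.63 and -2.12, at -3.35, -3.46 and -3.22, and at -1.04, -1.51 and -1.48, while Phtf1 was at 0.05 ± 0.11. Ggnbp2os rose by 1.48 ± 0.12 (adjusted p = 0.000101) and Ggnbp2 was at -0.33 ± 0.10. Atad3aos, on no serum array well above background, was called higher (adjusted p = 0.000867), and Atad3a was at 0.09 ± 0.11. Of the partners of antisense RNAs called lower with serum, Man2c1 mRNA was at -0.05 and Mccc1 mRNA at 0.20 in that comparison. For the 27 antisense probes not called, 0 partners were called. Of all mRNA probes tested, 3.54% were called higher and 2.45% lower. The counts of 0 called partners are near these shares and are no result about the pairs.

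Noncoding variants that share a symbol with an mRNA probe were compared in the same way, in 17 pairs. The noncoding probe of Zfp207, a zinc finger protein of the mitotic spindle, stood at -3.20 and -3.24, at -3.59, -3.53 and -3.30, and at -1.55, -1.42 and -1.60, whereas its mRNA probe was at -0.17 ± 0.14. The noncoding probe of Runx2, the transcription factor of bone formation, fell by 1.21 ± 0.21 on the log2 scale (adjusted p = 0.00462) and its mRNA probe was at -0.43 ± 0.26. In Prmt6, an arginine methyltransferase, the noncoding probes were at 0.84 ± 0.15 and 0.82 ± 0.26 while the mRNA probe was at -2.05 ± 0.21 (adjusted p = 0.000288), and in Ccdc169 the noncoding probe was at -0.91 ± 0.35 and the mRNA probe at 2.27 ± 0.25 (adjusted p = 0.000397). These pairs were picked for their difference, and no test of the difference was made.

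**Figure D5:**
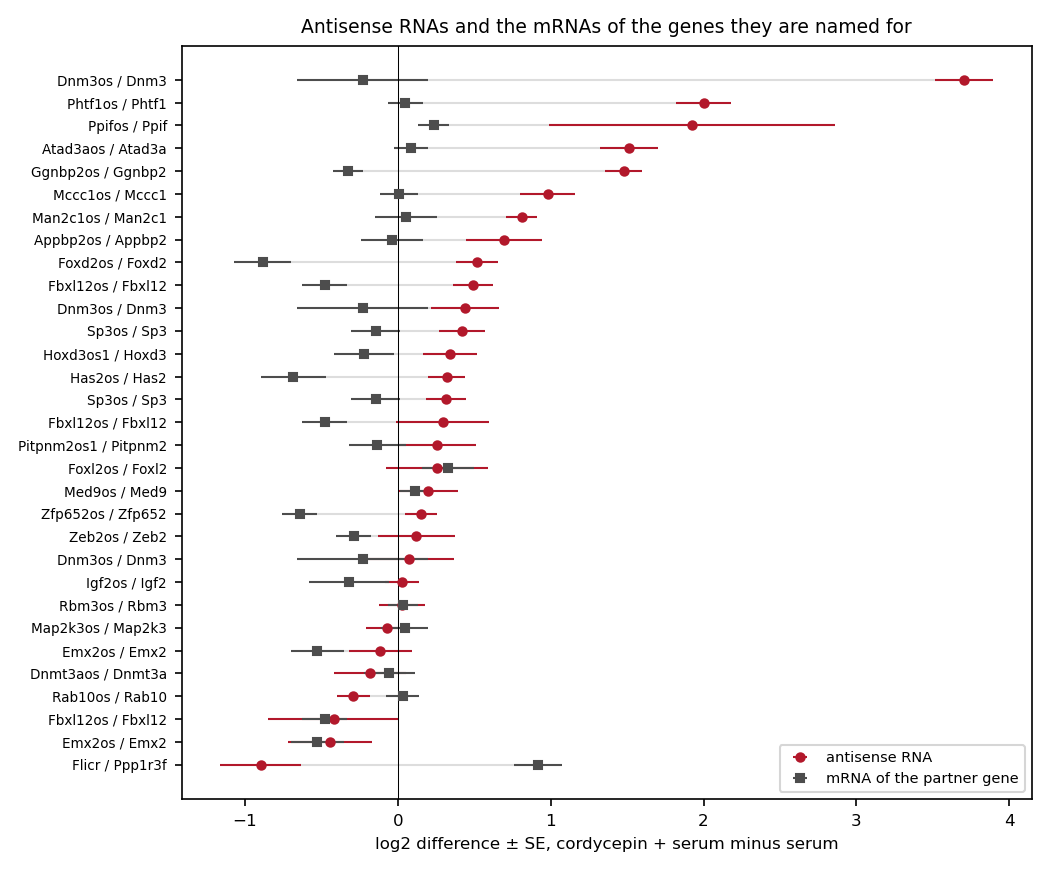
Log2 difference between cordycepin with serum and serum alone, with its standard error (x axis), for the 31 antisense RNA probes with a tested partner (circles) and for the brightest mRNA probe of the gene that the array's name for the RNA refers to (squares), ordered by the antisense value. The highest antisense values are those of the third Dnm3os probe, drawn at its measured value, of Phtf1os and of Ppifos, which did not pass the test, while the partner mRNAs lie between -0.88 and 0.92.

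The promoter of 4930426L09Rik, the member that rose most with serum and lay near the starved level with cordycepin, is shown. A GC-rich Egr motif is in capitals (letters GCGGGGGCG on either strand, here on the reverse strand). Egr factors are early products of the serum response. The stretch runs from 250 bases before to 50 after the annotated start, at chr2:18998069-18998368 on the plus strand of GRCm38.p6, and is taken from RefSeq.
4930426L09Rik promoter: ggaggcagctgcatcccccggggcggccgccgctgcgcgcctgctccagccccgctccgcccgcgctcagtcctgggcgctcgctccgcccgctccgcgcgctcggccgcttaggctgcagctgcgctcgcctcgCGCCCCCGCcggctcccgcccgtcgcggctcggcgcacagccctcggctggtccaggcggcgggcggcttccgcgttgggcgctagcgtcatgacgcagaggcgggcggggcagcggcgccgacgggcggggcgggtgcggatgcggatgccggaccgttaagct
The motif was found in 894 of 27025 promoters of that length (3.31%), in 12 of the 343 tested members with a promoter entry (3.50%) and in 2 of the 7 members called higher with serum that had an entry, the other being 4930429B21Rik, which overlaps Zmat3. Both RNAs were also called lower with cordycepin. In all, 5 motifs were searched, on both strands except the TATA box TATAAA, and besides these they were the AP-1 site TGACTCA and the CArG box. Among the 7 members called higher with serum, the AP-1 site and the CArG box were found in 0 and the TATA box in 1. The cAMP response element TGACGTCA was found in 2.03% of all promoters and in 14 of the 343 tested members (4.08%). It was found in 2 of 16 members called lower with cordycepin, Gas5 and Meg3. Both were called at their middle probe only, and their brightest probes were at 0.07 and 0.02. Of the same 16, the Egr motif was found in 2, the TATA box in 2, the CArG box in 1 and the AP-1 site in 0. A match is no more than a run of letters in this window.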

How the data were processed

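RNA of 8 NIH3T3 samples was hybridised in 1 colour to Agilent mouse arrays of 62976 spots. The deposited intensities are those written by Feature Extraction 10.7.3.1, per the file headers with background subtracted and without normalisation between arrays, and the depth of an array is not defined as for reads, so that the number of arrays limits the precision. From these, log2 of the processed signal minus the 75th percentile of the non-control spots of each array was computed, outlier spots were left out and spots of a probe averaged. Between 51.1% and 57.1% of spots were well above background.

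Probes passing the detection filter were fitted with limma 3.58.1 in R 4.3.3 across all 8 arrays, with Benjamini-Hochberg adjustment over 30859 probes. All arrays lay on 1 slide. The code was tested on simulated data. Symbols were taken from RefSeq for 1501 of the 1559 probes, and 73 changed. Members of fixed lists were named, and of the called members above background in both groups the 10 largest each way for cordycepin and the 5 largest for the other comparisons, plus the 5 largest bounds. The members, classes and lists were chosen with earlier results of these data known. The distance limits of 10000 bases upstream and 3000 bases for neighbours, the polyadenylation signal, the motifs and the printed sequences were chosen after values had been seen. Classes departed from the planned wording where a description named a small RNA only as a host or where RefSeq gave a pseudogene. Alternatives were normexp background correction, quantile normalisation, spike-in centring, other detection filters, no minimum fold, an intensity trend, the slide row or the replicate number as a block, and leaving out each array.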

Additional observations from a re-analysis of the deposited data

How the results depend on the processing

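Of the named results called, 19 of 35 for cordycepin against serum, 10 of 27 for cordycepin against starved cells and 0 of 13 for serum kept their call under every alternative, and 0 reversed. The counts called higher and lower (69 and 20, 8 and 10, 51 and 14 for cordycepin, serum, and cordycepin against starved cells) became 29 and 7, 3 and 2, 22 and 6 with normexp, 36 and 4, 0 and 3, 15 and 6 with spike-in centring, and 121 and 44, 8 and 13, 77 and 31 with no minimum fold. With probes above background on all 8 arrays they were 37 and 16, 7 and 4, 25 and 13. For serum, quantile normalisation gave 5 higher, and no filter on dim probes 2 higher and 4 lower. The replicate numbers did not pair the arrays (correlations of -0.17 to 0.23 over 7 same-numbered pairs), and with a replicate block the counts were 70 and 19, 5 and 10, 50 and 19. Leaving out 1 array gave 59 to 69 higher and 15 to 21 lower for cordycepin, 2 to 7 and 5 to 11 for serum, and 43 to 54 and 12 to 22 against starved cells. The serum count of 8 higher fell to 2 without serum replicate 1, to 4 without serum replicate 2 or 3 and to 3 without either starved array, its 10 lower fell to 5 without starved replicate 2, and the 14 lower against starved cells became 22 without cordycepin replicate 3. The cause of these changes was not tested. The counts over all probes moved as well. For cordycepin, 2356 higher and 886 lower became 919 and 402 with normexp and 1530 and 338 with spike-in centring. For serum, 262 and 271 became 171 and 59, and 46 and 123. Against starved cells, 1999 and 923 became 1063 and 338, and 790 and 476. Slide row and treatment were not balanced: row 1 held cordycepin replicates 1 and 2 and serum replicate 1, and row 2 cordycepin replicate 3 and serum replicates 2 and 3. With the slide row as a block the counts were 64 and 20, 7 and 8, 50 and 14. Within rows 1 and 2 Malat1 differed by -2.54 and -2.02 and Dancr by 2.02 and 2.00. Rows agreed less for others, such as Snhg3 (0.73 and 1.27) and 1700029M20Rik (0.89 and 2.45). With 2 starved arrays the serum comparison was the least stable.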
